A study of Mus musculus with 7 samples.

Results

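Phospholipid scramblases are membrane proteins that move lipids between the 2 leaflets of a bilayer. The 6 genes described here are Plscr1, Plscr2, Plscr3 and Plscr4 of the phospholipid scramblase family, Ano6, which encodes the calcium-activated scramblase TMEM16F, and Xkr8, which encodes a caspase-activated scramblase. They were chosen by gene symbol from the 24015 rows of the count table, after the old and young levels in these libraries were known, so their old against young values are given as a description and support nothing by themselves. All 6 were in the table, and all 6 had enough counts to enter the fit over 11506 genes. The libraries were made from haematopoietic stem cells (HSCs) of C57BL/6 mice, sorted from bone marrow as LSKCD150+CD48- cells, with 3 libraries labelled old and 4 labelled young. No treatment or genetic change is named. The labels give neither the ages nor whether each library was a separate mouse, so the spread between libraries may be partly technical.

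In a resting cell, flippases of the P4-ATPase family keep phosphatidylserine on the inner leaflet of the plasma membrane, and floppases of the ABC transporter family move other lipids outward. Scramblases undo this asymmetry without using ATP, and the phosphatidylserine they expose serves as a platform for clotting factors on platelets and as a signal for engulfment on dying cells. Ano6 opens when calcium rises, and its loss causes the bleeding disorder Scott syndrome. Xkr8 is opened by caspase cleavage during apoptosis and needs basigin or neuroplastin to reach the membrane. The Plscr proteins bind calcium and lie at the plasma membrane, in the nucleus or, for Plscr3, at mitochondria, and Plscr1 is a known interferon-inducible gene. Whether Plscr proteins scramble lipids in living cells is debated.

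Plscr1, Plscr2 and Plscr4 are neighbours on chromosome 9, so their sequences are shown first, because close copies could exchange reads. In the mouse annotation GENCODE M21 their order is Plscr5, Plscr1, Plscr2 and Plscr4, all on the same strand, while Plscr3 lies on chromosome 11, Ano6 on chromosome 15 and Xkr8 on chromosome 4. The 60 coding bases below are the window in which the Plscr1 and Plscr2 coding sequences were most alike, read from the GENCODE M21 transcripts (build GRCm38). Capitals mark bases that differ from Plscr1.
Plscr1, coding bases 379 to 438: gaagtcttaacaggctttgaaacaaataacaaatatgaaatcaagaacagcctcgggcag
Plscr2, coding bases 346 to 405: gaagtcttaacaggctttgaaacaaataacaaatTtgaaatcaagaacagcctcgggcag
Plscr4, coding bases 382 to 441: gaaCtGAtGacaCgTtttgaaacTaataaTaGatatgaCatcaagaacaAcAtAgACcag
Plscr3, coding bases 286 to 345: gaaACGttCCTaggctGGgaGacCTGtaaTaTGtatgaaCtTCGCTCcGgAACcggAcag

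In this window Plscr2 differed from Plscr1 at 1 base, Plscr4 at 15 and Plscr3 at 27. Over the aligned coding sequence the identity to Plscr1 was 82.9% for Plscr2 (924 bases), 64.2% for Plscr4 (917 bases) and 62.4% for Plscr3 (867 bases). The translated proteins were of 328 residues for Plscr1, 307 for Plscr2, 296 for Plscr3 and 326 for Plscr4, and Plscr1 and Plscr2 shared 75.6% of 307 aligned residues. Despite that likeness, few stretches of 36 bases or more were identical in both genes. Only exact matches were counted, so stretches with a mismatch, as in the window above, were not covered. Only 2 stretches of 36 bases occurred in both Plscr1 and Plscr2 transcripts, and of stretches of 50 bases no Plscr gene shared any with another. The longest identical run of their coding sequences was 37 bases. Plscr4 shared no stretch of 36 bases with any annotated gene.

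Other genes matched more of the members' transcripts than the family did. Of the 50-base stretches of Plscr1, 12.3% also occurred in Gm5530, a locus that the count table does not list, and 24.2% of those of Plscr3 occurred in Tnk1, a kinase gene that overlaps it on the opposite strand. The library kit does not mark strand, so reads from the Plscr3 and Tnk1 overlap cannot be told apart. Tnk1 itself was counted at 0 in 3 of the 4 young libraries and at 1 count in 2 of the 3 old libraries, with 128 counts in old 3 and 237 in young 4. For Ano6 the share was 2.74%, with antisense transcripts among the matches, for Plscr2 1.99% and for Xkr8 0.804%.

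Each library held 22203806 to 32401925 counts, and levels below are in CPM, counts scaled to a common library total, after TMM, which corrects that total for composition. A count of 0 allows a level of up to 0.0929 to 0.137 CPM, the worth of 3 counts, and this limit covers counting error only. On the first principal component, which held 27% of the variance, young 1 stood apart (score 215 against -94.2 to 44.7 for the 6 other libraries). Values without young 1 are therefore given below for Plscr2, Abcg1 and Abcb4. On the second component young 2 stood apart (score 181 against -93.8 to 34.7 for the 6 other libraries). Of the genes of the sort, Kit, Ly6a and Slamf1 were present in both groups, and Cd48, whose product the sort excluded, was at 0 in the old and averaged 12.4 ± 10.1 CPM in the young libraries (SD, n = 4).

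Plscr1, Plscr2 and Plscr4 were each higher in every old than in every young library, Ano6 was lower in every old library, and Plscr3 and Xkr8 overlapped between the groups. Plscr2 differed most, with 530, 391 and 582 CPM in old 1 to old 3 against 0, 7.53, 2.75 and 8.88 CPM in young 1 to young 4. The old mean was 501 ± 98.7 CPM (SD, n = 3), the young mean 4.79 ± 4.14 CPM (SD, n = 4), and the difference 105-fold. The lowest old library was 44.1-fold above the highest young one, so no young library came near the old range. In reads, the old libraries held 14034, 12641 and 15154 Plscr2 counts, and the young libraries 0, 165, 76 and 255. Young libraries other than young 1 thus held a low level above the counting limit.

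Plscr1, the best studied member of the family, was detected in all libraries. It stood at 424, 335 and 481 CPM in the old and at 88.1, 131, 68.5 and 130.4 CPM in the young libraries. The means of 414 ± 73.7 CPM (SD, n = 3) and 104 ± 31.2 CPM (SD, n = 4) differed 3.96-fold, and the lowest old library was 2.56-fold above the highest young one. Plscr4, a less studied member, stood at 234, 206 and 286 CPM in the old and at 56.9, 96.9, 43.3 and 73.9 CPM in the young libraries. Its means were 242 ± 40.7 CPM (SD, n = 3) and 67.8 ± 23.1 CPM (SD, n = 4), a 3.57-fold difference. In both genes old 3 was the highest and old 2 the lowest of the old libraries, and young 3 was the lowest of all.

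Plscr3, the family member known from mitochondria, did not share this pattern. It stood at 131, 183 and 156 CPM in the old and at 133, 166, 269 and 216 CPM in the young libraries, with means of 157 ± 26.0 CPM (SD, n = 3) and 196 ± 59.1 CPM (SD, n = 4). The 2 groups overlapped, and young 3, the lowest library for Plscr1 and Plscr4, was the highest for Plscr3. Plscr5, the remaining gene of the family, had no count in any of the 7 libraries.

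Ano6 was the only member lower in every old than in every young library. Its level was 26.5, 20.3 and 22.6 CPM in the old and 44.6, 33.7, 47.5 and 39.2 CPM in the young libraries. The means of 23.1 ± 3.16 CPM (SD, n = 3) and 41.3 ± 6.09 CPM (SD, n = 4) were 1.78-fold apart, and the lowest young library was 1.27-fold above the highest old one.

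Xkr8 varied more within a group than between groups. It stood at 9.86, 34.3 and 9.84 CPM in the old and at 0.0876, 28.8, 38.4 and 6.79 CPM in the young libraries. Young 1 held 2 counts of Xkr8, under the limit that a count of 0 allows. The means were 18.0 ± 14.1 CPM (SD, n = 3) and 18.5 ± 18.05 CPM (SD, n = 4). Old 2 carried the old mean, while in the young group young 2 and young 3 stood far above young 1 and young 4.

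**Figure D1:**
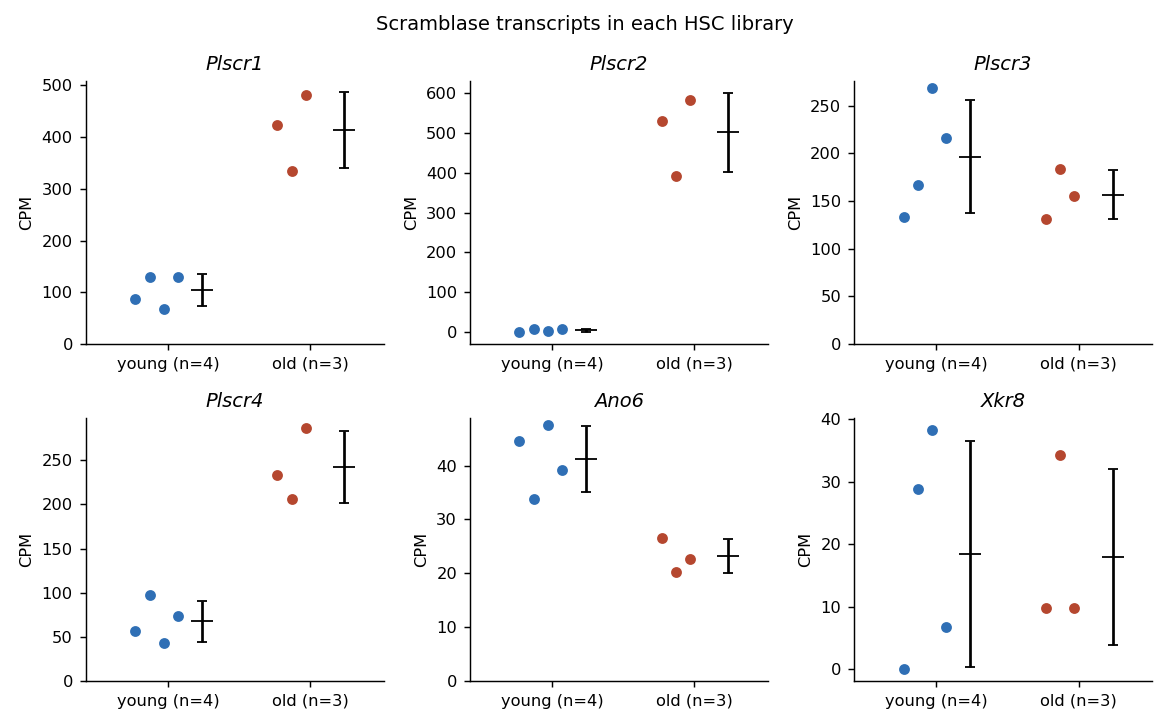
Level of each scramblase gene in CPM (vertical axis, a separate scale per gene) in the 4 young and 3 old libraries. Points are libraries and the bar with whiskers is the mean ± SD; Plscr1, Plscr2 and Plscr4 are separated upward in old, Ano6 downward, and Plscr3 and Xkr8 overlap.

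In the fit of old against young over all 11506 genes (quasi-likelihood test of edgeR, Benjamini-Hochberg adjustment), Plscr1 was the only member past an adjusted p of 0.05. Thus 1 of 6 members was called higher, where 0.235% of all tested genes were, and 0 of 6 were called lower, where 0.0174% were. The groups did not overlap upward in 3 of 6 members, against 7.55% of all tested genes, and downward in 1 of 6, against 5.18%. Since the members were proposed from this same contrast, nothing is read from these counts, and the p-values below describe the fit and test nothing new. At an unadjusted p under 0.05 in edgeR, Plscr1, Plscr2 and Plscr4 were higher, where 4.62% of all tested genes were, and no member was lower, where 4.49% were. DESeq2 called the same 3 members higher and none lower, and over all genes it called 288 higher (2.49%) and 306 lower (2.64%), against 27 and 2 by edgeR. For Ano6 the unadjusted p by DESeq2 was 0.0206 and the adjusted p 0.195.

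The fitted log2 fold change, old minus young, was 1.99 ± 0.28 (SE) for Plscr1 with an edgeR adjusted p of 0.0431. Leaving out any of the 7 libraries put its adjusted p at 0.0504 to 0.249, while the log2 fold change kept within 1.83 to 2.11. Plscr2 had the larger log2 fold change, 6.71 ± 1.11, with an edgeR adjusted p of 0.0609. Without young 1, the library with no Plscr2 count, the log2 fold change of Plscr2 was 6.29 ± 0.51 and its adjusted p 0.00702. Plscr4 had a log2 fold change of 1.84 ± 0.31 and an edgeR adjusted p of 0.0692. The values were -0.32 ± 0.29 for Plscr3 (adjusted p = 0.894), -0.83 ± 0.52 for Ano6 (adjusted p = 0.760) and -0.04 ± 1.41 for Xkr8 (adjusted p = 0.997), all by edgeR. With scaling by library size alone, which put the median log2 fold change of all genes at -0.12 against -0.03, Plscr1 was at 1.90 and Ano6 at -0.94.

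Levels of different genes were compared per kilobase of merged exons, with lengths from GENCODE M21 since the annotation used for counting is not given in the sources used here. In old HSCs the order on this scale was Plscr1 (168 ± 29.9 CPM per kb), Plscr2 (158 ± 31.0), Plscr4 (67.4 ± 11.3), Plscr3 (49.8 ± 8.25), Xkr8 (4.18 ± 3.28) and Ano6 (1.89 ± 0.258; SD, n = 3 each). Plscr1 and Plscr2 overlapped between libraries, as did Plscr4 and Plscr3, and the means of Xkr8 and Ano6 were less than 1 SD of Xkr8 apart, though their libraries did not overlap. In young HSCs the order was Plscr3 (62.3 ± 18.8 CPM per kb), Plscr1 (42.4 ± 12.7), Plscr4 (18.9 ± 6.43), Xkr8 (4.29 ± 4.18), Ano6 (3.36 ± 0.496) and Plscr2 (1.51 ± 1.30; SD, n = 4 each). There Plscr3 and Plscr1 overlapped between libraries, as did Xkr8 and Ano6, and Ano6 and Plscr2, while Plscr4 overlapped with neither of its neighbours. Plscr2 thus stood second in old and last in young HSCs. By coding length in place of merged exons, Plscr2 came before Plscr1 in old HSCs and the other ranks stayed. The stretches that Plscr3 shares with Tnk1, and Plscr1 with Gm5530, were not left out of these lengths. Whether reads from them were counted is not known, so the levels of Plscr3 and Plscr1 and the shares below may be off.

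The 4 detected Plscr genes together came to 446, 375 and 508 CPM per kb in the old and 94.0, 135, 126 and 145 CPM per kb in the young libraries. The means were 443 ± 66.5 (SD, n = 3) and 125 ± 22.1 CPM per kb (SD, n = 4). Of this sum, Plscr2 made up 35.4% ± 2.34 in old and 1.09% ± 0.910 in young HSCs. Plscr3 made up 11.5% ± 3.46 in old and 49.8% ± 12.4 in young HSCs. The share of Plscr4 was 15.2% ± 0.552 in old and 15.1% ± 4.40 in young HSCs. The share of Plscr1 was 37.8% ± 1.30 and 34.0% ± 8.02, and both of these shares overlapped between the groups.

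**Figure D2:**
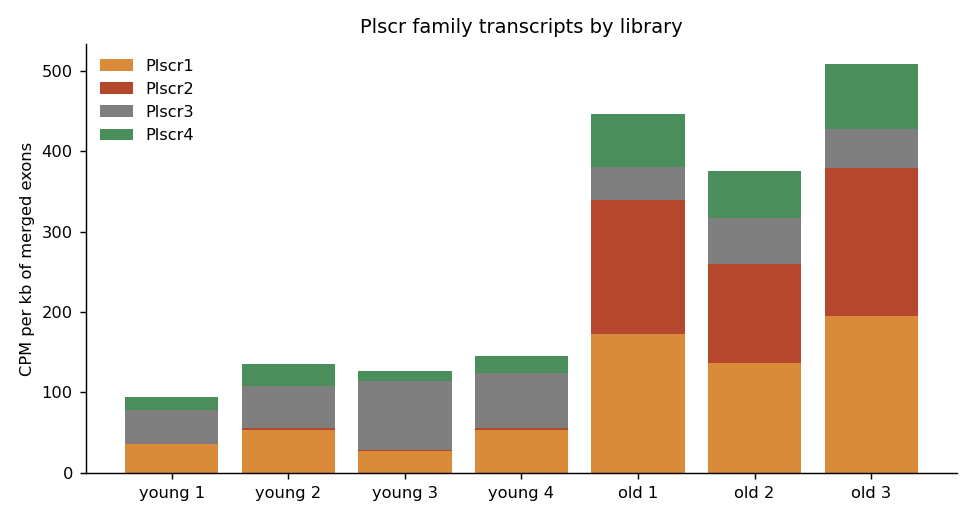
Summed level of the 4 detected Plscr genes in CPM per kb of merged exons (vertical axis) for each library, stacked by gene. The young bars reach 94.0 to 145 and are mostly Plscr1 and Plscr3; the old bars reach 375 to 508 and are mostly Plscr1 and Plscr2.

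Plscr1 and Plscr4 kept nearly the same proportion in all libraries, although their level differed between them. The ratio of Plscr1 to Plscr4, in CPM per kb, was 2.65, 2.37 and 2.45 in the old and 2.26, 1.97, 2.31 and 2.58 in the young libraries, with overlapping groups. The ratio of Plscr2 to Plscr1 was 0.967, 0.904 and 0.936 in the old libraries and 0, 0.0446, 0.0310 and 0.0527 in the young. This ratio was narrow within the old group, and between the groups it did not overlap. Among the young libraries with a Plscr2 count it ran from 0.0310 to 0.0527.

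Likeness of pattern was measured as the Pearson correlation of log2 CPM over the 7 libraries, against 8240 genes averaging 10 CPM or more. These values are descriptions: the 7 points share library and scaling, and any genes that differ between the groups correlate. The gene most like Plscr1 was Plscr4 (r = 0.993), and the gene most like Plscr4 was Plscr1. After the group means were subtracted, r between Plscr1 and Plscr4 was 0.947, while r between Plscr1 and Plscr2 was 0.912 before and 0.483 after that step. Plscr2 had no count in young 1, so its log2 CPM there was set by the 2 counts added to every gene. Every r with Plscr2 thus leans on that library, and none was computed without it. The next genes for both Plscr1 and Plscr4 were Rab11a, a GTPase of recycling endosomes (r = 0.989 and 0.986), and Gng11, a G protein gamma subunit (r = 0.985 and 0.986).

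Among the closest genes to Plscr2 were Gstm1, a glutathione transferase with close copies in the genome (r = 0.998), and Vapb, a tether protein of the endoplasmic reticulum (r = 0.993). Both values carry the limit from young 1 named above. Plscr3 was most like Ash2l, a subunit of histone methyltransferase complexes (r = 0.966), the death receptor gene Tnfrsf21 (r = 0.965) and Tbl3 (r = 0.960). Ano6 was most like Naa50, an N-terminal acetyltransferase (r = 0.992), the endocytic adaptor Eps15 (r = 0.986) and the replication factor Cdc6 (r = 0.978). Xkr8 was most like the poly(A) polymerase gene Papola (r = 0.992), Btbd6 (r = 0.972) and Csnk2a2, a casein kinase subunit (r = 0.972). Between members, Ano6 ran opposite to Plscr1 (r = -0.937), Plscr2 (r = -0.891) and Plscr4 (r = -0.955). After the group means were subtracted these values were -0.526, -0.419 and -0.683, so part of each was the difference between the groups.

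**Figure D3:**
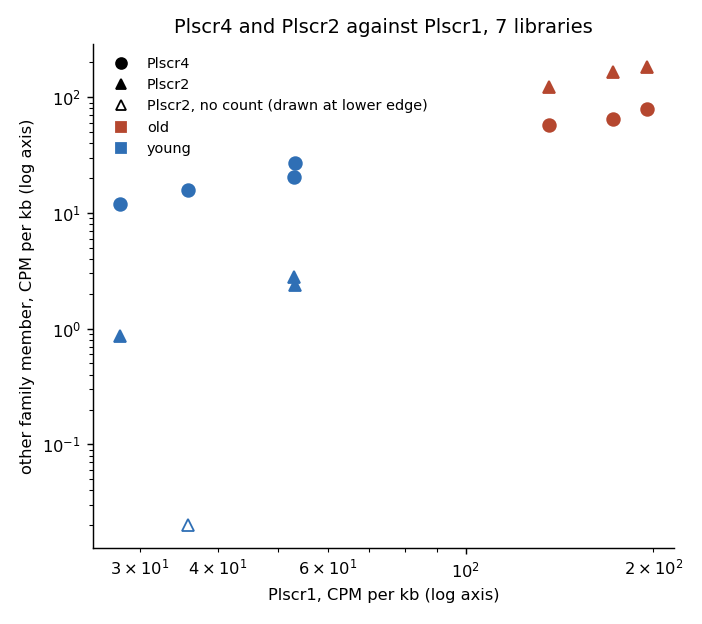
Plscr4 (circles) and Plscr2 (triangles) against Plscr1, all in CPM per kb on logarithmic axes, with 1 point per library for each gene. Plscr4 runs along with Plscr1 through both groups, while Plscr2 lies near Plscr1 in the old libraries and far under it in the young ones.

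The genes around the chromosome 9 cluster were examined because 3 of its 4 Plscr genes differed in the same direction. Of the 5 protein-coding genes on each side, 6 were tested, with edgeR adjusted p-values of 0.612 to 0.995. Morf4l1, a chromatin factor, had a log2 fold change of -0.08 ± 0.20 and Tbc1d2b one of 0.10 ± 1.42. Zic1, Zic4 and Adamts7 had no count. On the other side Plod2, a collagen lysyl hydroxylase next to Plscr4, averaged 10.6 ± 5.86 CPM in the old and 7.42 ± 5.18 CPM in the young group (log2 fold change 0.51 ± 1.35). Farther out, 1190002N15Rik was at -1.64 ± 0.80, the sulfotransferase gene Chst2 at 2.34 ± 1.75 and U2surp, a splicing factor, at -0.32 ± 0.33, and all 3 overlapped between the groups. Within the cluster, 1700057G04Rik, between Plscr2 and Plscr4, was under the counting limit in every library. The flanking genes with the smallest SE, Morf4l1 and U2surp, had small log2 fold changes beside those of Plscr1, Plscr2 and Plscr4. They are the outermost of the genes examined on either side. The nearer flanking genes were not tested or had an SE of 0.80 to 1.75. Where along the chromosome the difference ends was therefore not tested.

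**Figure D4:**
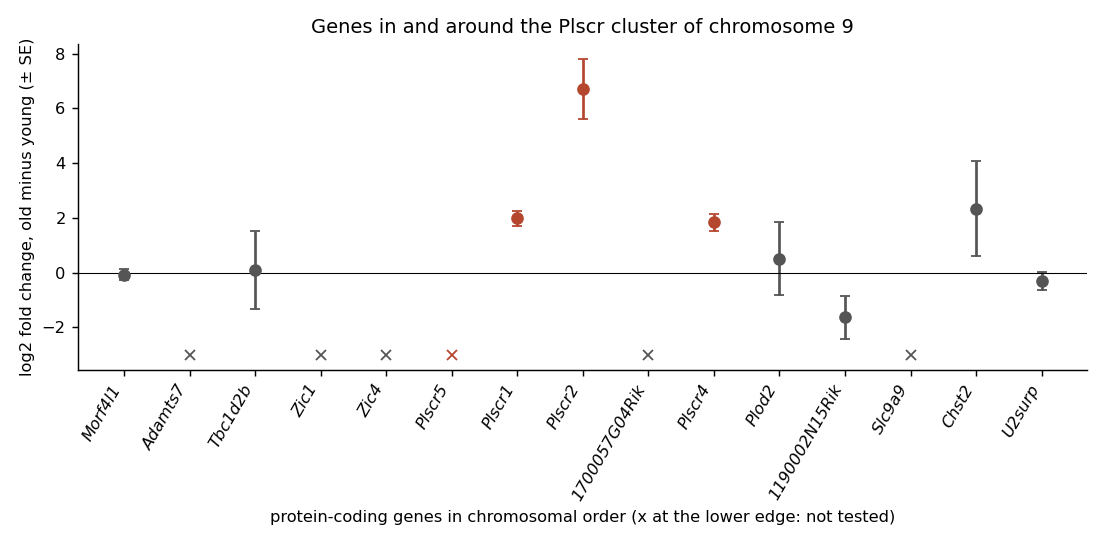
Fitted log2 fold change, old minus young, with SE (vertical axis) of the protein-coding genes in and around the chromosome 9 cluster, in chromosomal order. Plscr1, Plscr2 and Plscr4 lie at 1.99, 6.71 and 1.84, and genes with too few counts to be tested are crosses at the lower edge.

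The promoters of Plscr1 and Plscr4 are shown because these genes kept a nearly constant ratio. They are the 250 bases before the annotated start, from RefSeq on build GRCm38.p6, which is not the mm9 build of the counts, and the table holds an entry for 4 of the 6 members. Capitals mark matches to any of 8 motifs searched on both strands.
Plscr1, chr9:92249944-92250193, plus strand: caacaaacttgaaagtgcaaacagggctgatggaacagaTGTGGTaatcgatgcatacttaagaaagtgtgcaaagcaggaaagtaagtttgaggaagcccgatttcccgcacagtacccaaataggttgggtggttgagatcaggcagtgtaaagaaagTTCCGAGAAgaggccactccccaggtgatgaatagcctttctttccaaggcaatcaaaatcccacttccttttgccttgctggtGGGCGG
Plscr4, chr9:92457128-92457377, plus strand: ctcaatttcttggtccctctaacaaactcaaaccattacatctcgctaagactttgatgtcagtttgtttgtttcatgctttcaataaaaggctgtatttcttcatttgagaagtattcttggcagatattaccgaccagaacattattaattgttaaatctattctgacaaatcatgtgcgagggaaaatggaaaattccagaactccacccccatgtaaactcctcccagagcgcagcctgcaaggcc

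The motifs, where N is any base, were the GC box with the letters GGGCGG, the CCAAT box, the TATA box with the letters TATAAA and the AP-1 motif with TGANTCA. The others were the STAT motif with TTCNNNGAA, the RUNX motif with TGTGGT, the ETS motif with CCGGAAGT and the interferon-stimulated response element, a pair of GAAA with 2 bases between them. Some of these motifs can overlap each other, but the 3 matches in the Plscr1 window did not. The Plscr1 window held 1 GC box, 6 bases before the start, which 32.7% of 32851 promoter windows also hold. It also held 1 STAT match, 90 bases before the start (7.02% of windows), and 1 RUNX match, 211 bases before it (14%). The Plscr4 window held none of the 8. The others occur in 33.8% (CCAAT), 12.4% (TATAAA), 6.75% (AP-1), 2.98% (interferon-stimulated response element) and 2.88% (ETS) of windows. A match describes letters only. The window was 47.2% G and C for Plscr1 and 39.6% for Plscr4, below the median of 52.4%, and 68.4% for Ano6 and 69.6% for the first of 3 listed starts of Plscr3.

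Lists of genes that act with scramblases were then read from the same fit. They held 141 genes in 8 lists, of which 108 were tested. By edgeR none was called in either direction, 5 were higher and 11 lower at an unadjusted p under 0.05, DESeq2 called 2 higher and 3 lower, and limma-voom called 1 higher. The 16 genes at an unadjusted p under 0.05 stand beside 1049 of 11506 over all tested genes (4.62% higher and 4.49% lower). The DESeq2 calls stand beside 2.49% higher and 2.64% lower, and those of limma-voom beside 0.426% higher and 0.00869% lower. The counts of each list below are to be read against these shares. Of the 108, 48 had a positive log2 fold change (median -0.09), beside 48.5% of all tested genes (median -0.03).

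Among 23 relatives and other scramblases, 10 were at 0 in every library, among them Ano1, Ano2 and Xkr4, and 10 were tested. Vmp1, a scramblase of the endoplasmic reticulum needed for autophagosomes, was at 833, 769 and 837 CPM in the old and 486, 372, 282 and 373 CPM in the young libraries, groups that did not overlap. Its log2 fold change was 1.10 ± 0.22 (edgeR adjusted p = 0.107), and DESeq2 and limma-voom called it higher. Xk, an XKR family protein of red cells, averaged 54.4 ± 24.8 CPM in the old and 24.0 ± 23.5 CPM in the young group with overlapping groups, and its log2 fold change of 1.18 was 2.15 without young 2. Xkr6 averaged 1.16 ± 0.192 and 0.232 ± 0.205 CPM, and its log2 fold change was 2.30, or 2.89 if young 3 was left out. The list had 6 positive log2 fold changes of 10 (median 0.12).

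Of the 16 tested partners and activators none was called by edgeR, 2 were lower at an unadjusted p under 0.05, DESeq2 called 1 lower, and 6 were positive (median -0.15). The Xkr8 chaperone basigin, Bsg, averaged 920 ± 101 CPM in the old and 764 ± 116 CPM in the young group, and its relative Nptn 135 ± 17.7 and 112 ± 41.8 CPM, both with overlapping groups. The kinase gene Stk4 averaged 64.4 ± 19.2 CPM in the old and 137 ± 18.3 CPM in the young group without overlap (log2 fold change -1.09 ± 0.30, edgeR adjusted p = 0.218), and DESeq2 called it lower. The kinase gene Src was uncounted in all old libraries and in young 2, with a young mean of 2.51 ± 3.46 CPM. It was at least 23.4-fold lower in old HSCs against a floor of 3 counts per library averaged over the old group, and at least 7.70-fold without young 3, whose 7.55 CPM carried the mean.

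Flippase genes were not called in either direction by edgeR. Of 18 listed, 11 were tested, 1 was lower at an unadjusted p under 0.05, DESeq2 called that 1 lower, and 3 were positive (median -0.34). It was Atp11b, an endosomal flippase, with 109, 121 and 172 CPM in the old and 287, 185, 230 and 244 CPM in the young libraries (log2 fold change -0.82 ± 0.26, edgeR adjusted p = 0.297). For this gene the groups did not overlap. Atp11a, a flippase of the plasma membrane, averaged 9.19 ± 4.69 CPM in the old and 20.1 ± 15.8 CPM in the young group, and Atp9b, a flippase of the Golgi, 31.9 ± 1.42 and 55.4 ± 34.6 CPM, both overlapping. The log2 fold change of Atp11a was -1.13, and -0.53 without young 3. Tmem30a, the subunit most flippases need, averaged 282 ± 22.04 and 272 ± 102 CPM.

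The 8 ABC floppase genes had 2 positive log2 fold changes (median -0.83), 0 calls by edgeR and by DESeq2, and 1 lower at an unadjusted p under 0.05. That one was Abcg1, a sterol exporter, with 150.1 ± 27.2 CPM in the old and 334 ± 213 CPM in the young group. Its highest young library was young 1 at 649.8 CPM, and the groups did not overlap. The log2 fold change of Abcg1 was -1.15 ± 0.43, and -0.61 ± 0.26 without young 1. Abcc1 averaged 18.0 ± 5.95 and 33.4 ± 13.2 CPM, and Abcb4, a phosphatidylcholine floppase, 3.23 ± 4.49 and 15.9 ± 22.4 CPM. Abcb4 stood at 48.5 CPM in young 1 and at 12.6, 1.99 and 0.488 CPM in the other young libraries. Its log2 fold change of -2.30 ± 1.84 was -0.64 without young 1 and -4.62 without old 1.

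All 14 genes of phosphatidylserine synthesis and transfer were tested, with 0 calls by edgeR and by DESeq2, 1 higher at an unadjusted p under 0.05, and 6 positive values (median -0.06). Prelid1, a lipid carrier of mitochondria, averaged 267 ± 73.8 CPM in the old and 152 ± 25.2 CPM in the young group without overlap (log2 fold change 0.81 ± 0.25, edgeR adjusted p = 0.298). Pi4ka, a lipid kinase of the plasma membrane, averaged 6.65 ± 3.99 and 28.4 ± 16.6 CPM (log2 fold change -2.09, and -2.68 without old 1), and Slmo2, a carrier of phosphatidylserine in mitochondria, 93.1 ± 17.9 and 126 ± 13.3 CPM.

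Of 24 readers of exposed phosphatidylserine and engulfment genes, 13 were tested, with 0 calls by edgeR and by DESeq2 and 2 lower at an unadjusted p under 0.05. Cd47, the signal against engulfment, stood at 570, 604 and 705 CPM in the old and at 849.5, 939, 871 and 728 CPM in the young libraries, without overlap (log2 fold change -0.44 ± 0.19, edgeR adjusted p = 0.518). Its receptor gene Sirpa averaged 13.8 ± 9.42 CPM in the old and 45.7 ± 13.9 CPM in the young group, and the GTPase gene Rac1 502 ± 12.8 and 368 ± 74.6 CPM. The list had 6 positive values (median -0.30).

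Annexins bind phosphatidylserine when calcium is present. Of 11, 9 were tested, 0 were called by edgeR, 2 were higher and 1 lower at an unadjusted p under 0.05, DESeq2 called 1 higher, and 5 were positive (median 0.35). Anxa1 stood at 627, 376 and 505 CPM in the old and at 147, 257, 238 and 231 CPM in the young libraries, without overlap (log2 fold change 1.20 ± 0.26, edgeR adjusted p = 0.138), and was the gene that DESeq2 called. Anxa7 averaged 359 ± 42.3 and 218 ± 61.1 CPM, and Anxa6 19.2 ± 2.87 and 68.9 ± 41.7 CPM.

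Plscr1 is an interferon-inducible gene, and other such genes gave a comparison for it. All 27 listed were tested, 0 were called by edgeR, 1 was higher and 4 lower at an unadjusted p under 0.05, DESeq2 called 1 lower, and 14 were positive (median 0.03). Ifitm3 averaged 2059 ± 799 CPM in the old and 1015 ± 355 CPM in the young group with overlapping groups. Ifi27l2a, uncounted in every old library, had a young mean of 5.22 ± 3.34 CPM, so that it was at least 48.8-fold lower in old against the same floor (edgeR adjusted p = 0.191). Mx1, also uncounted there, had a young mean of 2.16 ± 3.63 CPM, which made it at least 20.2-fold lower. Young 4 with 7.59 CPM carried that mean, and without it the bound was 3.31-fold. Young 1 had no Mx1 count either, so the groups overlapped.

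**Figure D5:**
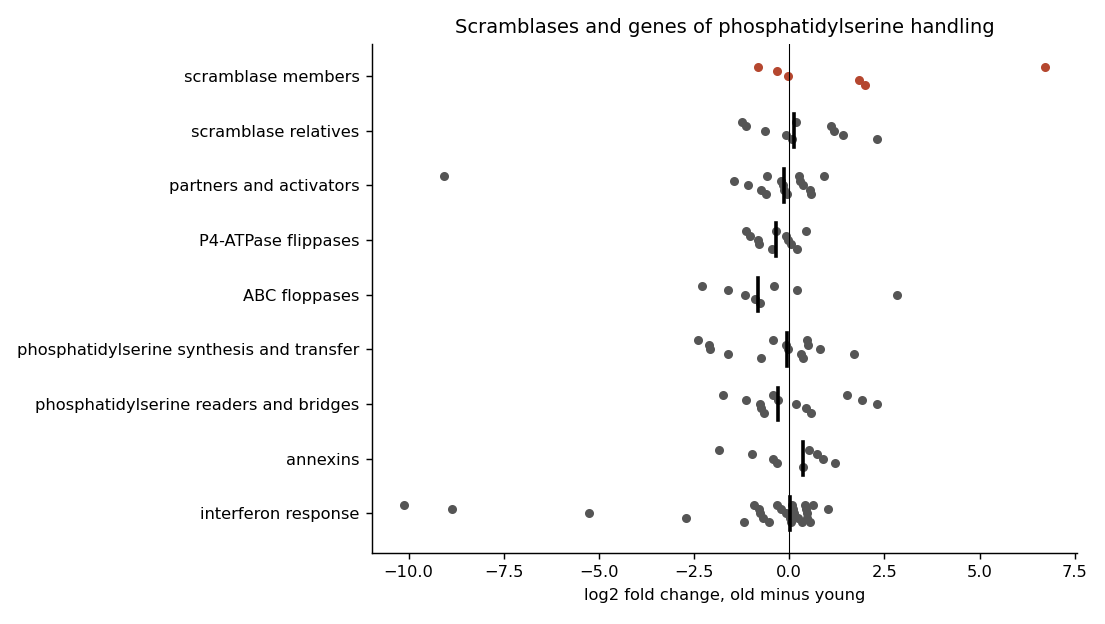
Log2 fold change, old minus young (horizontal axis), of the 6 scramblase genes and of each tested gene in the 8 lists, with the median of each list as a black bar. The list medians lie between -0.83 and 0.35, and the 3 leftmost points are Ifi27l2a, Src and Mx1, which had no count in the old group and whose fitted values are not bounds.

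Markers of HSCs and of other cells were read beside the members, because fewer cells of a type and less RNA per cell cannot be told apart in bulk samples. The summed level of 6 HSC genes was 1427 to 1843 CPM in the old and 578 to 1097 CPM in the young libraries, so the sum was higher in the libraries where Plscr1, Plscr2 and Plscr4 were higher. Of the 6, Procr was called higher in old HSCs (332 ± 47.9 against 49.7 ± 11.7 CPM, edgeR adjusted p = 0.00643), and Ly6a, Slamf1 and Mecom also had no overlap upward. Kit (253 against 364 CPM) and Hlf (144 against 169 CPM) had lower means in the old group, with overlapping groups. The 3 genes Cd48, Cd34 and Flt3 summed to 85.2 to 135 CPM in old and 261 to 406.5 CPM in young HSCs. This sum was thus lower in the libraries where Ano6 was lower. Cd34 carried it, since Cd48 and Flt3 were at 0 in every old library. In young HSCs Cd34 averaged 308 CPM, against 12.4 CPM for Cd48 and 13.0 CPM for Flt3. For 12 megakaryocyte and platelet genes the ranges were 423 to 643.5 and 435.5 to 806 CPM. The 12 granulocyte and monocyte genes summed to 1424 to 2195 and 858 to 1433 CPM, of which Lyz2 (1200.2 CPM in old) and Prtn3 (644.6 CPM in old, called higher with an edgeR adjusted p of 0.0242) made up most, while Ctsg and Csf1r were at 0 in every library.

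For 9 erythroid genes the sums were 23.5 to 83.4 CPM in old and 96.3 to 138.5 CPM in young HSCs, with Hbb-b1, Hba-a1 and Hba-a2 at 0 in both groups. Nearly all of these sums came from Epor (mean 24.6 CPM in old, 51.0 CPM in young), Tfrc (25.7 and 35.7 CPM) and Klf1 (8.30 and 31.6 CPM). Each of these genes overlapped between the groups. Among 8 B cell genes, Cd79b made up nearly all of 73.4 to 192 and 122 to 185 CPM, and Pax5 and Ms4a1 were at 0. The 9 T and NK cell genes summed to 214 to 273 and 79.5 to 382 CPM, with Cd3e and Cd8a at 0 and Klrb1c making up most of the old sums (mean 178 CPM against 3.04 CPM in young). Nkg7 made up most of the young sums, with a young mean of 184 CPM against an old mean of 70.8 CPM, and overlapped between the groups. The 6 endothelial genes summed to 97.0 to 201.0 and 90.05 to 159.7 CPM, and the 6 stromal genes to 0 to 8.69 and 0 to 5.92 CPM. The part of these markers in the differences of the scramblase genes was not tested.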

How the data were processed

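RNA of 7 libraries of sorted mouse HSCs, 3 old and 4 young, was measured. Per the labels' protocols, cDNA came from polyadenylated RNA by Smart-seq+ and libraries from the Nextera XT kit. Raw counts of reads for each gene symbol were deposited. The submitters' processing notes name build mm9 with FastQC, Trimmomatic, featureCounts and STAR. For these tools the versions, the annotation and strandedness were not given in the sources used here. No molecular identifiers are named, so counts can include amplification copies.

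Genes were kept by filterByExpr (minimum count 10, minimum total 15), scaled by TMM and fitted with edgeR 4.0.16 (glmQLFit, glmQLFTest, group as the only term, 2-sided) in R 4.3.3, with Benjamini-Hochberg adjustment over all 11506 tested genes and a threshold of 0.05. Each SE was obtained as log2 fold change over the root of F. DESeq2 1.42.0, limma 3.58.1 (voom), 3 other scalings, 2 other filters, a block for the replicate number and the omission of each library were alternatives. The code was checked on counts simulated with the dispersions of these data, which does not measure its error rates here. Likeness used log2 CPM with a prior count of 2. Exon lengths and transcripts came from GENCODE M21, which matched 22716 of 24015 symbols and all 6 members. Coding sequences were aligned with Biopython 1.88. The members and lists were chosen with earlier results of these data known. Named list genes are, per list, the 3 tested genes of smallest p, plus some direct partners of the members; the 3 most alike genes are named per member, and neighbours by position. Some of the genes that this rule names are not reported here.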

Additional observations from a re-analysis of the deposited data

Results flagged for a closer look

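Among 45 named genes, 4 had 1 young library far from the 3 others, with a gap taking up nearly the whole range of the young libraries (above the 95% critical value of Dixon for 4 samples). About 1 in 20 groups is marked so by chance. None of the 6 scramblase genes was among them. Xk was highest in young 2, at 59.0 CPM, while the 3 others stood at 9.72 to 15.4 CPM. Nptn, one of the Xkr8 chaperones, was also highest in young 2, at 174 CPM against 86.6 to 96.9 CPM. Mx1 was highest in young 4, at 7.59 CPM against 0 to 0.594 CPM. Vapb, close to Plscr2 in pattern, was lowest in young 1, at 7.10 CPM against 15.1 to 16.6 CPM.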

How the results depend on the processing

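The direction of Plscr1, Plscr2, Plscr3, Plscr4 and Ano6 was the same under all 15 alternatives, with log2 fold changes of 1.83 to 2.15, 6.29 to 8.39, -0.47 to -0.13, 1.67 to 2.06 and -0.95 to -0.76. Xkr8 turned to 1.504 with limma-voom and 0.85 with the replicate block, and ran from -0.94 to 0.60 when each library was left out. The number of called genes, 29 by edgeR, was 16 with library size alone, 594 with DESeq2, 50 with limma-voom and 2 to 18 when 1 library was left out. With the replicate block, edgeR called 0 genes (694 at an unadjusted p under 0.05) and 0 members. Deviations of same-numbered old and young libraries correlated at 0.03, -0.07 and -0.01, and no old library correlated best with the young library of its own number. These values showed no pairing by number, but a weak shared effect could give the same values. The labels name no pairing, so whether the numbers pair the samples was not settled. The number of called members was 3 with DESeq2, 2 with limma-voom (Plscr1 and Plscr4), 3 without the filter, 2 among genes of at least 10 CPM (Plscr1 and Plscr2), and 0 to 1 when 1 library was left out. The 1 was Plscr2, without young 1. Of 575 values of 39 other named genes, 553 kept direction and side of the threshold, 17 newly passed and 5 turned. Tmem30a was at -0.054 with library size alone and -0.15 to 0.29 with a library left out, Papola at -0.015 to 0.34 and Btbd6 at -0.16 to 1.11. Not dividing CPM by length moved 6 of 12 ranks of the members' levels, and coding length moved 2. The Plscr2 level of the young libraries rests on 0 to 255 counts and that of Xkr8 in young 1 on 2 counts, so depth limits both.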
